A study of Drosophila melanogaster with 2 samples.

Results

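A set of 10 genes of the Drosophila Ras-MAPK signalling pathway was examined in chromatin immunoprecipitation and sequencing (ChIP-seq) of the protein CG11723, a gene product known by its annotation number. They were Raf, RapGAP1, Ras85D, Dsor1, rl, Sos, Egfr, pnt, aop and Lk6, 10 of 13968 annotated protein-coding genes. The set was chosen by pathway and from measured values of the same region lists, in which Raf and RapGAP1 stood high, so the presence, number and signal of regions at these genes are given as description with no test. Whole embryos of both sexes aged 0 to 16 hours came from a transgenic line that stably expressed CG11723 with GFP at its C-terminus, and an anti-GFP antibody was used on chromatin sonicated to 200 to 800 bp. There was 1 group, with biological replicates numbered 1 and 3. Neither input DNA nor an untagged line was analysed here, and the promoter driving the transgene is not given in the sources used here. Tissues and 16 hours of development were combined, so a region cannot be assigned to a cell type or stage.

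Signalling through this pathway starts when a ligand binds a receptor tyrosine kinase such as Egfr. The exchange factor Sos then loads the GTPase Ras85D with GTP, and Ras85D recruits the kinase Raf, which acts through the kinase Dsor1 (MEK) on rolled (rl, the ERK MAP kinase). In the nucleus rl acts on a pair of ETS-domain factors that compete for target genes, the activator pointed (pnt) and the repressor anterior open (aop, also called Yan). In the fly embryo the pathway patterns the termini, the ventral ectoderm and the tracheal system.

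Of the 10 genes, 7 had at least 1 region of the IDR list, the authors' list thresholded by irreproducible discovery rate (IDR). These genes held 31 of its 3869 regions (0.801%). A region was assigned to a gene when its summit lay in the gene body or within 2 kb of a transcription start site (TSS). Raf held 9, RapGAP1 8, rl, pnt and aop 4 each, and Egfr and Lk6 1 each. Sos, Ras85D and Dsor1 held none. Over all protein-coding genes, 23.6% had such a region. The IDR list equals the 3869 regions of highest signal in a list called on the pooled replicates, and signal below is the authors' value per region, on a scale that is not stated. Rank 1 is the highest signal of a list, and each list other than the IDR list held 30000 regions. Those lists were deposited as peaks and background together, as input for IDR, so a low-ranked region in them may be background.

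Summits of the genes that led the results are shown as dm6 plus-strand sequence from the RefSeq genome assembly, each centred on its summit. The set shows the strongest pair of the Raf cluster and its upstream region beside summits at Lk6, RapGAP1 and aop, and the Ras85D promoter, where the region lists disagreed. Capitals mark matches to 8 motifs searched on both strands: the DRE (TATCGATA), which is the site of the factor Dref, its core (TCGATA), the sequence CTATCGA that overlaps the DRE, the sequence CACAGTG, the sequence ACAGTGG that overlaps the previous one, the GAGA-factor sequence GAGAGAG, the Zelda sequence CAGGTAG and the ETS-type sequence CCGGAAG. The Raf, Lk6, RapGAP1 and aop windows reach 100 bp to either side of the summit and that of Ras85D 80 bp.
Raf X:2297632-2297832: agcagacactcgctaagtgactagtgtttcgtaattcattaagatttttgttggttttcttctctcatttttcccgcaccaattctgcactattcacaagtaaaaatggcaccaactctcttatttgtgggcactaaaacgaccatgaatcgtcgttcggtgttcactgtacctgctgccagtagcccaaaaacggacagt
Raf X:2300618-2300818: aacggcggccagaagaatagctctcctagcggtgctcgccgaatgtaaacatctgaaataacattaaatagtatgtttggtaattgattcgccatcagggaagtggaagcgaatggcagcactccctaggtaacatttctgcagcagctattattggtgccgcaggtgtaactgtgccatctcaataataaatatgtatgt
Raf X:2293590-2293790: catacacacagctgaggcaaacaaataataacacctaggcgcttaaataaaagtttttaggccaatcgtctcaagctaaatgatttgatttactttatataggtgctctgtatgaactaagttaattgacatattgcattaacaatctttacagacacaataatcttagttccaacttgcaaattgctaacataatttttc
Lk6 3R:11760949-11761149: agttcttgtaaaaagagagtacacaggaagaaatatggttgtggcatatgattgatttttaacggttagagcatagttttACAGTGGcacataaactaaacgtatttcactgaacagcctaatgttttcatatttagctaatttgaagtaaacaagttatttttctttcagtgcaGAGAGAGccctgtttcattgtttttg
RapGAP1 2L:7530621-7530821: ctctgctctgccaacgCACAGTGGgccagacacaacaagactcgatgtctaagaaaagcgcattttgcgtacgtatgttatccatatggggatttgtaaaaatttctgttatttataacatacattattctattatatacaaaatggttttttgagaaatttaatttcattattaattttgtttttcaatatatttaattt
aop 2L:2163580-2163780: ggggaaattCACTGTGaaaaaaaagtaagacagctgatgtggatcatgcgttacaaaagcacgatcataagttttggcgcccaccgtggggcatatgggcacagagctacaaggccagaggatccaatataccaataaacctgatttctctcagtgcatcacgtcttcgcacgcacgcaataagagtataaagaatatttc
aop 2L:2180164-2180364: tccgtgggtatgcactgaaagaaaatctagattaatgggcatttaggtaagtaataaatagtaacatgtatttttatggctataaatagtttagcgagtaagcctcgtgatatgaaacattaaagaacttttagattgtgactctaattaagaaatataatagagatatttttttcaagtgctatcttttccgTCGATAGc
Ras85D 3R:9513071-9513231: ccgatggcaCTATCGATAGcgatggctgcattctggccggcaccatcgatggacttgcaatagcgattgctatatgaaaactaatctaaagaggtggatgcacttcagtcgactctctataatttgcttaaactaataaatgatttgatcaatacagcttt

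Raf encodes the MAPK kinase kinase that couples Ras to the cascade. The gene (FBgn0003079) spans X:2295466-2343870 on the plus strand, 48405 bp, with 2 annotated TSSs 44832 bp apart. The long transcript has an intron of 43637 bp after its second exon (X:2296154-2296353), and 8 of the 9 IDR summits lay in it. The other lay upstream of the gene.

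**Figure D1:**
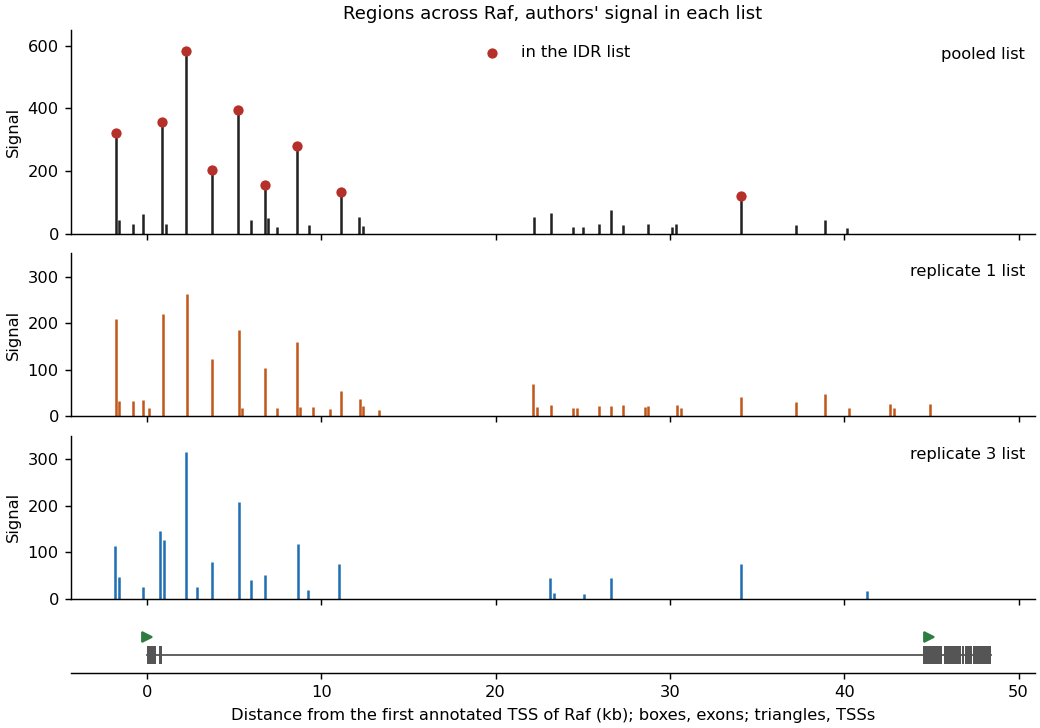
Signal of every region across Raf against the distance from its first TSS in kb, in the pooled list and in the list of each replicate, above the exons (boxes) and TSSs (triangles). Red points mark the 9 IDR regions, 8 of which fall between -1776 and +11126 bp, while the far end of the intron and the short TSS hold weak regions or none.

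The strongest region was X:2297556-2297884, 2266 bp into the gene, with a pooled signal of 585 (rank 114), 262 in replicate 1 (rank 209) and 316 in replicate 3 (rank 70). The next, X:2300544-2300855 at +5252 bp, had a pooled signal of 394 (rank 304), 186 in replicate 1 (rank 464) and 209 in replicate 3 (rank 237). Both ranked higher in replicate 3 than in replicate 1, and their sequences are the first and the second printed above.

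The region at +888 bp, X:2296308-2296556, had a pooled signal of 358 (rank 374), with ranks 313 in replicate 1 and 691 in replicate 3. Its summit was the first base after exon 2. Replicate 3 also listed a separate region inside that exon, X:2296156-2296280, at signal 146 (rank 525), which overlapped no region of replicate 1 or of the pooled list.

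The region upstream of the gene, X:2293538-2293903, had a pooled signal of 321 (rank 483), with ranks 356 and 829 in replicates 1 and 3. It lay 1776 bp before the TSS of Raf and only 279 bp before that of CG2865, and it fell in the window of both genes. The data do not assign it to either gene.

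The region at +8619 bp, X:2303970-2304236, had a pooled signal of 279 (rank 618), with ranks 598 and 765 in replicates 1 and 3. The region at +3743 bp, X:2299081-2299300, had 203 (rank 1120), with ranks 1029 and 1566. The region at +6762 bp, X:2302165-2302322, had 154 (rank 1749), with ranks 1389 and 2949. These 3, like the 4 already described, were among the 3869 regions of highest signal, the top regions below, of both replicates.

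The last pair leaned on replicate 3. The region at +11126 bp, X:2306372-2306811, had a pooled signal of 132 (rank 2196), and ranked 4225 in replicate 1 and 1675 in replicate 3. The region at +34089 bp, X:2329441-2329619, had 120 (rank 2493), and ranked 6712 in replicate 1 and 1705 in replicate 3. The latter stood 22963 bp from its neighbour, 604 bp upstream of the TSS of lncRNA:CR33218 and 10743 bp upstream of the short TSS of Raf. Neither was among the top regions of replicate 1.

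The first 8 summits spanned 12902 bp. Between neighbours the distances were 2664, 1378, 1477, 1509, 1510, 1857 and 2507 bp, so 4 consecutive gaps were between 1378 and 1510 bp. In the 36 pairs of summit windows (50 bp to either side) of the 9 regions the longest run of identical bases on either strand was 12 bp, with a median of 8.5 bp. Region widths were 158 to 440 bp, where the median of the IDR list was 440 bp. Raf held 1.79 IDR regions per 10 kb of its window, against 0.289 per 10 kb of the 6 major arms. By the same measure aop held 1.65 and RapGAP1 0.962.

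The promoter of the long Raf transcript carried a weak region only. It lay 209 bp upstream of the TSS, with a pooled signal of 64.2 (rank 5901), 33.9 in replicate 1 (rank 8758) and 24.7 in replicate 3 (rank 7060), and was outside the IDR list. The nearest pooled summit to the short TSS was 4687 bp away. Replicate 1 alone listed a region near the short TSS, at +44902 bp, with signal 26.2 (rank 12594). In the full pooled list Raf held 32 regions, and below the IDR list the strongest was X:2321847-2322286, with signal 76.5 (rank 4703).

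Counting along each arm, 8 blocks of merged IDR regions within 15 kb of a first summit was a number reached at 3 separate loci, Raf included. The other two, on 2R near lncRNA:CR44365 and on X near CHES-1-like, held 9 each. Of all protein-coding genes, 9 (0.0644%) had at least 9 IDR regions, among them Raf. Of the 5 genes outside the pathway lists nearest to Raf in this number, CG14434 had 9 regions (highest signal 366), and gus (512), Hr4 (465), Eip75B (377) and Tlk (935) had 8 each. The likeness is in the number of regions of 1 list, with ties ordered by how near the highest signal was to that of Raf.

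RapGAP1 encodes an activator of GTP hydrolysis by Rap1, a small GTPase of the Ras family. The gene (2L:7497805-7578980, minus strand, 81176 bp, 5 annotated TSSs) held 8 IDR regions in 7 blocks, all of them intronic for some transcript. In the top regions of the replicates it held 7 in replicate 1 and 4 in replicate 3.

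The strongest region of RapGAP1 lay at an internal promoter, 147 bp upstream of the TSS of a short transcript. It was 2L:7530539-7530977, with a pooled signal of 559 (rank 135), 307 in replicate 1 (rank 132) and 256 in replicate 3 (rank 134). The replicates thus placed it within 2 ranks of each other. A second summit in the same block, 359 bp upstream of that TSS, had a pooled signal of 107 (rank 2960). Near this second summit replicate 1 listed a region of signal 37.9 (rank 7451) and replicate 3 one of 132 (rank 646), so it was a top region of its own in replicate 3 only.

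The other 6 regions of RapGAP1 had pooled signals of 92.4 to 180. The one at 2L:7576996-7577253 (180, rank 1383), 522 bp upstream of another TSS of the gene, ranked 591 in replicate 1 and 4793 in replicate 3. The summit behind the latter rank was 237 bp away, and a nearer one of replicate 3, at 29 bp, ranked 10812. Those at 2L:7512949-7513088 (172) and 2L:7564986-7565152 (155) were top regions of both replicates, with ranks 1298 and 1957 for the former and 1734 and 2246 for the latter. The remaining 3, with signals of 95.8, 93.5 and 92.4, were top regions of replicate 1 alone. In replicate 3 these ranked 10547, 9073 and 4633.

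Lk6 encodes a kinase that binds MAP kinase and phosphorylates the translation initiation factor eIF4E. The gene (3R:11750931-11764457, minus strand, 13527 bp) held a single IDR region, the one of highest signal among all 10 genes. It was 3R:11760873-11761260 in intron 1, 3408 bp into the gene and 970 bp upstream of an inner TSS. Its pooled signal was 955 (rank 15), with 497 in replicate 1 (rank 22) and 465 in replicate 3 (rank 17). Both replicates ranked it among their strongest. The motif ACAGTGG lay 17 bp from its summit and GAGAGAG 78 bp from it. At the first TSS of Lk6 a region 23 bp into the gene was listed at 87.0 in the pooled list (rank 3954), just outside the IDR list. It ranked 1410 in replicate 1 and was absent from the list of replicate 3, and Lk6 therefore held 2 top regions in replicate 1 and 1 in replicate 3.

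The receptor Egfr (2R:21522420-21559977, plus strand, 37558 bp) held 1 weak IDR region. It was 2R:21527265-21527704 in intron 1 of the longer transcript, 5065 bp from the first TSS. The pooled signal was 113 (rank 2718), with 69.7 in replicate 1 (rank 2819) and 44.7 in replicate 3 (rank 3397), and it was a top region of both. Both TSSs of Egfr carried regions below the IDR list. The one 37 bp into the gene had a pooled signal of 62.9 (rank 6061), ranked 4072 in replicate 1 and was absent from the list of replicate 3. The one at the inner TSS, 27 bp downstream, had 47.6 (rank 8693), with ranks 9976 and 9415. Its pooled summit was 24250 bp into the gene, and the summit behind the latter rank was at 24592 bp. A nearer one of replicate 3, at 24364 bp, ranked 13271.

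The 3 shortest genes held no IDR region. Sos (2L:13813816-13819824, 6009 bp), the Ras exchange factor, had no region of any list in its window, and the nearest pooled summit was 10139 bp from its TSS. Dsor1 (X:9247342-9250037, 2696 bp), the kinase between Raf and rl, had a pooled region 191 bp downstream of a TSS with signal 21.7 (rank 23239). Replicate 3 listed it at 20.7 (rank 9124), and replicate 1 had no region there.

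Ras85D (3R:9510561-9513067, minus strand, 2507 bp), the GTPase itself, was listed in both replicates and not in the pooled list. Replicate 3 had a region with its summit 84 bp upstream of the TSS, at signal 78.6 (rank 1575, a top region), and replicate 1 had one 75 bp upstream at 41.5 (rank 6516). The nearest pooled summit was 3065 bp from the TSS. A top region of replicate 3 that overlapped a region of replicate 1 and none of the pooled list was uncommon, with 54 of 3869 (1.4%). Why the pooled list lacks it was not tested. In the printed window of Ras85D the DRE lay at 3R:9513081-9513088, its near edge 14 bp upstream of the TSS, and 2.58% of the top regions of replicate 3 held a DRE in a window of that length.

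The MAP kinase gene rl (2R:1071462-1125927, plus strand, 54466 bp) held 4 IDR regions close to its 2 TSSs. The strongest pair shared 1 block inside lncRNA:CR41257, with summits 644 and 444 bp upstream of the first TSS of rl. The farther summit had a pooled signal of 214 (rank 1007), with ranks 659 in replicate 1 and 2211 in replicate 3. The nearer had 165 (rank 1583), and its own regions ranked 1196 in replicate 1 and 3027 in replicate 3. Both summits were thus listed separately, as top regions, in each replicate. The summits were 501 and 301 bp from the TSS of the lncRNA gene. The other pair was weak and uneven. The region 24 bp upstream of the inner TSS (91.4, rank 3712) ranked 5927 in replicate 1 and 3380 in replicate 3. The one 924 bp downstream of that TSS (89.1, rank 3848) ranked 2574 and 12479.

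The ETS activator gene pnt (3R:23290231-23346167, minus strand, 55937 bp, 3 TSSs) held 4 IDR regions, all in intron 3 of 1 of its 4 transcripts. The strongest, 3R:23326378-23326614, was 19649 bp into the gene, with a pooled signal of 235 (rank 842), 153 in replicate 1 (rank 661) and 77.1 in replicate 3 (rank 1623). The region at 3R:23335609-23336048 had 166 (rank 1558), with ranks 1295 and 2282, the latter from a summit 107 bp away. Both were top regions of both replicates. The region 221 bp upstream of the middle TSS, 3R:23314316-23314755, had 155 (rank 1729), with 145 in replicate 1 (rank 742) and 18.5 in replicate 3 (rank 10971), and GAGAGAG lay within 50 bp of its summit. The fourth (94.2, rank 3557) was a top region of neither replicate, with ranks 5156 and 4086, and lay 33 bp from the TSS of lncRNA:CR46090. Replicate 1 alone gave pnt 7 top regions and replicate 3 alone 3.

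The ETS repressor gene aop (2L:2156484-2178754, minus strand, 22271 bp) held 4 IDR regions in 2 pairs, one upstream of the gene and one inside it. The upstream pair, 1510 and 823 bp before the first TSS, had pooled signals of 287 (rank 589) and 144 (rank 1937). The stronger ranked 728 in replicate 1 and 526 in replicate 3, and the weaker 3481 and 1137. The intronic pair, 2L:2163540-2163780 and 2L:2164792-2165231, lay 2153 and 3485 bp before the inner TSS, with 288 (rank 582) and 127 (rank 2317). The stronger ranked 681 and 651, and the weaker 2841 and 3684. All 4 were top regions of both replicates.

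The inner promoter of aop was another site where the pooled list held no region. Replicate 1 had a summit 444 bp upstream of the inner TSS (signal 65.8, rank 3105) and replicate 3 had one 434 bp upstream (65.8, rank 2047), both top regions, with no overlapping pooled region. Of the top regions of replicate 1, 0.724% overlapped a top region of replicate 3 and none of the pooled list. At the first TSS a region 31 bp into the gene had a pooled signal of 83.9 (rank 4162), just below the IDR list, with ranks 2834 and 11898 in replicates 1 and 3. In all, aop held 7 top regions in replicate 1 and 6 in replicate 3.

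**Figure D2:**
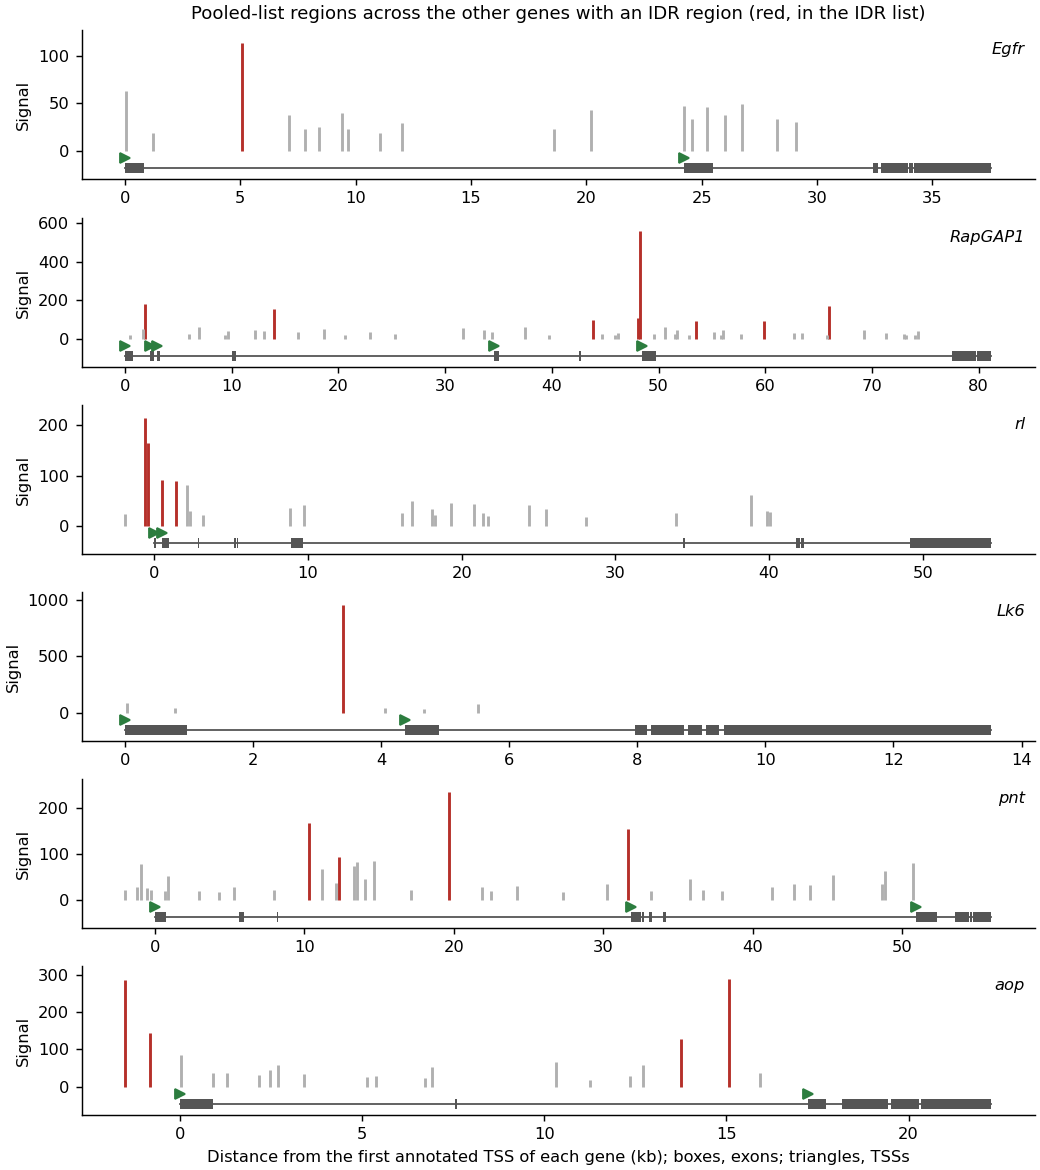
Pooled-list signal of every region across Egfr, RapGAP1, rl, Lk6, pnt and aop against the distance from each gene's first TSS in kb, above the exons (boxes) and TSSs (triangles), with IDR regions in red. The single tall region of Lk6 (955) and that of RapGAP1 (559) lie upstream of an inner TSS, the regions of rl crowd its start, and those of aop form an upstream and an inner pair.

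Across the 10 genes the spread of signal was wide. The 31 IDR regions had a median pooled signal of 165, against 144 over all 3869, and ran from 89.1 at rl to 955 at Lk6. Just inside the threshold stood regions of rl (89.1 and 91.4) and RapGAP1 (92.4), and just outside it those of Lk6 (87.0), pnt (84.7) and aop (83.9). The lowest signal of the list was 88.8.

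**Figure D3:**
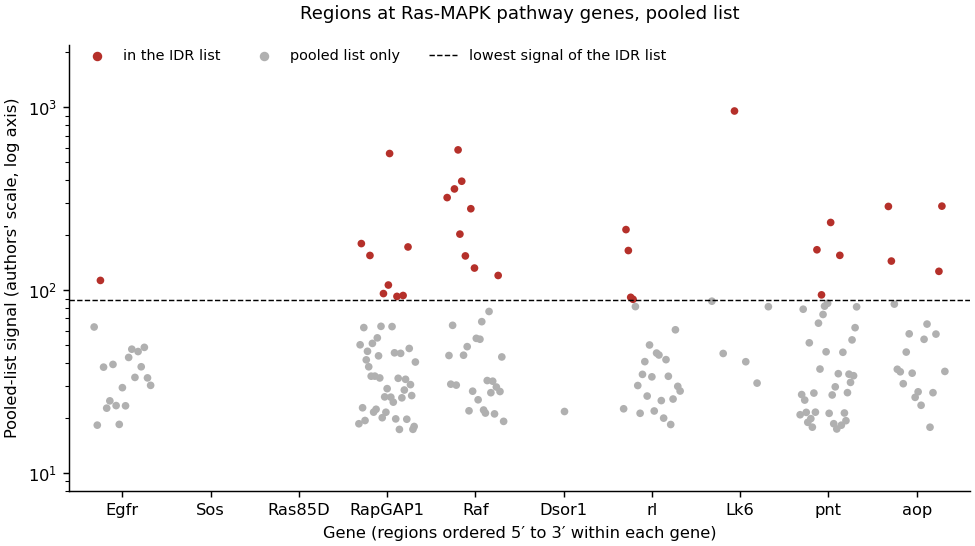
Pooled-list signal on a log axis of every region at each gene, ordered 5′ to 3′ within the gene, in red where the region is in the IDR list and grey otherwise. The dashed line is the lowest signal of the IDR list (88.8). Sos and Ras85D have no point, and Dsor1 has 1 far below the line.

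Most of the regions lay away from promoters. Of the 31, 26 were intronic and 5 upstream of the gene, and 0 had a summit in an exon of the gene. No share over all IDR regions is given for these places. A summit within 500 bp of a TSS of any gene was found for 7 (22.6%), against 50.4% of all IDR regions. The exact binomial 95% interval was 9.59 to 41.1, for counting error only. It takes regions as independent, which those sharing a block or a gene are not, and is no test. Of the 7, 5 lay within 500 bp of a TSS of the gene itself, at RapGAP1, rl and pnt. With a window of 1000 bp the share at the 10 genes was 48.4%, with 8 more summits between 500 and 1000 bp, against 61% of all IDR regions. With 200 bp it was 9.68%, against 34.6%. The window took in whole gene bodies, and all 7 genes with an IDR region had a body over 10 kb. Whether gene length accounts for the lower share was not tested. The median GC content within 50 bp of the summits was 39.6% (25.7 to 50.5), against 34.7% over all IDR regions.

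Regions near the promoters of the 10 genes were also counted in the single-replicate lists, which hold background as well as peaks. Of the 10, 9 had a region of replicate 1 or 3 within 500 bp of a TSS, Sos being the exception. Among all 13968 protein-coding genes, 7552 had such a region, so having one was common. The best rank there was higher in replicate 1 for 5 genes (RapGAP1, rl, Egfr, pnt and Lk6) and in replicate 3 for 4 (Raf, Ras85D, Dsor1 and aop). Over the 7552 protein-coding genes with such a region, it was higher in replicate 1 for 45.5%.

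Both replicates listed every one of the 31 regions, and 21 (67.7%) were among the top regions of both. The exact binomial 95% interval was 48.6 to 83.3, for counting error only and with regions taken as independent. The IDR list holds the regions of highest pooled signal, to which both replicates contribute, so the listing in both is no separate evidence of agreement. Membership does not mean that a region ranked high in each replicate. Over all IDR regions the share was 59.9%. A region counts here by the strongest replicate region it overlaps. By the overlapping one with the nearest summit, an alternative added after seeing the data, the share at the 10 genes was 61.3%. In the remainder, 6 reached the top regions of replicate 1 only, 3 those of replicate 3 only, and 1 did not reach either. Counting each of the 29 blocks once, the median rank was 1295 in replicate 1 and 1957 in replicate 3, and 19 blocks ranked higher in replicate 1 and 10 in replicate 3. Such values over all IDR regions are not given here, so a lean to replicate 1 cannot be called particular to these genes. Spearman's rho of the ranks was 0.61 across the 29 blocks, which share 2 libraries and were selected on a pooled signal that both contribute to. The top regions of replicate 1 that were in no IDR region numbered 10 of 36 at these genes, and those of replicate 3 numbered 7 of 32. The same share over all top regions is not given here, so these counts cannot be called high or low.

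**Figure D4:**
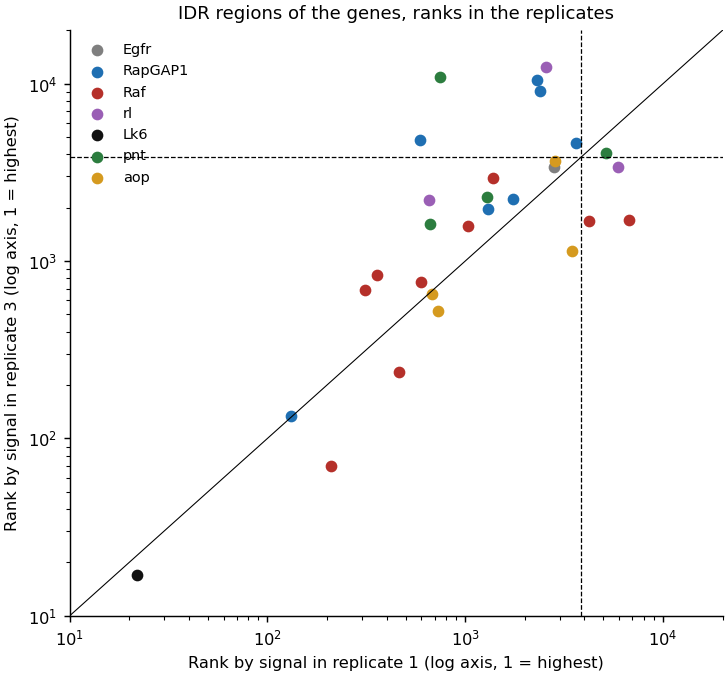
Rank by signal in replicate 1 against rank in replicate 3 for the 29 blocks of IDR regions, on log axes, coloured by gene, with the diagonal of equal ranks. Dashed lines mark rank 3869. Lk6 and the strongest region of RapGAP1 lie near the diagonal, and 2 blocks of RapGAP1 and 1 each of rl and pnt rank between 9073 and 12479 in replicate 3.

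The genes with IDR regions were the long ones. All 7 with a body over 10 kb had one and 0 of 3 shorter genes did. Over all protein-coding genes the share was 50.1% of 1985 with a body over 10 kb and 19.2% of 11983 shorter ones. Within the middle range of the genes' lengths (7889 to 52951 bp, their quartiles) 4 of 4 had a region, against 46.1% of protein-coding genes in that range. At least 4 IDR regions were held by 5 of the 10, against 1.31% of all protein-coding genes and 8.56% of those over 10 kb. These genes were chosen with such counts known.

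**Figure D5:**
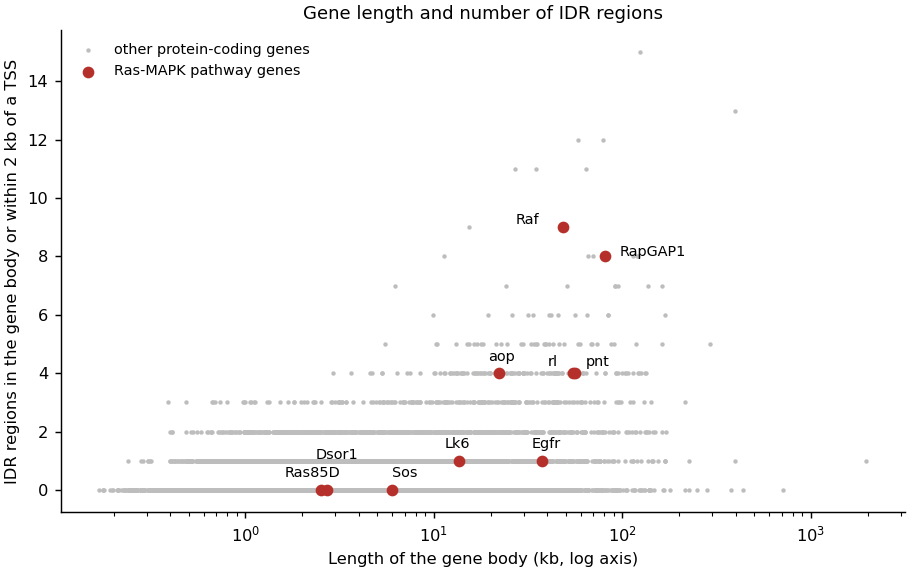
Number of IDR regions in the gene body or within 2 kb of a TSS against gene body length in kb on a log axis, for all 13968 protein-coding genes (grey) and the 10 pathway genes (red). Raf (9) and RapGAP1 (8) have the highest counts of the 10, and Sos, Ras85D and Dsor1 lie at 0 among short genes.

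Whether motifs were rarer or more frequent at these genes than over all regions changed with the list and the window. Within 50 bp of the summit 3 of 31 regions held any of the 8 motifs, against 13.3% of all IDR regions. They were Lk6 (ACAGTGG), the middle promoter of pnt (GAGAGAG) and the weaker intronic region of aop (CAGGTAG). In the top regions of single replicates the count was 6 of 36 at the genes in replicate 1, against 13.8% of all its top regions, and 6 of 32 in replicate 3, against 13.3%. None of the 9 Raf regions held any motif in that window, and 0 of 31 held the ETS-type CCGGAAG, found at 0.594% of all IDR regions. Some of these letters were found in earlier results of the same data.

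Within 100 bp of the summit, 11 of 31 regions held a motif, against 28.2% of all IDR regions. CACAGTG was in 6 of them, at Egfr, RapGAP1 and aop (7.44% of all), and ACAGTGG in 3, at Lk6 and RapGAP1 (8.58%). GAGAGAG was in 4, at Lk6, Raf, RapGAP1 and pnt (5.22%), so in this wider window 1 of the 9 Raf regions held it. In the strongest region of RapGAP1 the overlapping pair formed 1 site 81 bp from the summit. In the stronger intronic region of aop CACAGTG lay 88 bp from the summit, on the minus strand. Upstream of aop the core TCGATA and CTATCGA overlapped at 96 bp from the summit. A match describes the letters in a window.

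Other genes of receptor tyrosine kinase signalling were counted the same way, from a list of 60 names that gave 59 genes, since Gap1 is a synonym of RasGAP1. Of these, 31 (52.5%) had an IDR region, against the 23.6% of all protein-coding genes given above. By length, 18 of 28 over 10 kb and 13 of 31 shorter genes had one, beside the 50.1% and 19.2% of all such genes. The 31 genes held 56 regions in all, and 2, Star (S) and cic, held 4. Genes of the list other than the leader of each role are named after their values were seen.

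Ligands and their processing factors had one in 10 of 17 genes. The strongest was at S, which encodes a factor for ligand export, 5427 bp from a TSS (signal 477, rank 197; ranks 151 and 360 in replicates 1 and 3). Among receptor tyrosine kinases only htl, an FGF receptor, of 6 had one (175, rank 1446), and btl, tor, sev, Pvr and Alk had none.

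Inhibitors and feedback regulators had one in 4 of 7 genes, led by edl, whose product inhibits the ETS factors (504, rank 177; ranks 204 and 166). Adaptors and enzymes near the receptor had one in 4 of 6, led by the adaptor Shc, 121 bp upstream of its TSS (544, rank 146; ranks 451 and 52). Ras family GTPases and their regulators had one in 4 of 7, led by RasGAP1, which turns Ras off, 659 bp upstream of its TSS (447, rank 235; ranks 215 and 270).

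Scaffolds and partners of Raf, MEK and ERK had one in 5 of 9, led by the scaffold cnk (549, rank 144; ranks 268 and 74), whose region was nearest to the TSS of l(2)k01209. The scaffold ksr had none. Targets had one in 3 of 7, led by the corepressor gro, 151 bp upstream of a TSS (400, rank 297; ranks 609 and 167). The leaders of every role ranked in the top regions of both replicates. They were picked by pooled signal, to which both replicates contribute, so this is no separate evidence of agreement.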

How the data were processed

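The 2 samples were grouped by their labels. Region lists on dm6 were deposited by the authors for each replicate, for the pooled replicates and, by irreproducible discovery rate, for both. The deposited signal per region is the authors' value on an unstated scale, and the deposited −log10 q value reached a maximum of 3.79 in 3069 IDR regions and ordered nothing. The deposited summit offset served as position. The aligner was not given in the sources used here, nor were the peak caller and the threshold. Read numbers are not in the lists, so depth is unknown.

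Gene models came from Ensembl release 115 (BDGP 6.54) and sequence from RefSeq Release 6. Overlap meant at least 1 bp, and a region's replicate values are those of the strongest region it overlaps unless stated otherwise. All 10 genes are named, with the leader of each role and the 5 genes nearest to Raf in count. The genes, lists, motifs and rules were chosen with earlier results of these data known. Only the assignment of positions to gene windows was tested on simulated data, not the overlaps, blocks or motifs. Python 3.11.15, pandas 2.3.3, scipy 1.17.1 and pysam 0.24.0 were used. No test between groups was possible, and regions and genes are not replicates. Alternatives changed the window, position, list, replicate and gene models. The counts per length class, of regions within 15 kb and of regions missing from the pooled list were chosen after seeing the data. The dm3 lists were not used here.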

Additional observations from a re-analysis of the deposited data

How the results depend on the processing

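For a single replicate, with the other left out, its 3869 top regions replaced the IDR list, so those counts are not of IDR regions. The number of genes with a region was 7 to 8 and the number of regions 26 to 36 under other windows, positions, gene models or a single replicate, with 2 exceptions. Counting only summits within 500 bp of a TSS left 3 genes and 5 regions, and 14 of the other pathway genes. Taking the part of the IDR list with the highest signal left 19 regions at 6 genes. The share of all protein-coding genes is not given here for any alternative, so these counts of genes cannot be called high or low. The promoter share was 48.4% with 1000 bp around a TSS and 9.68% with 200 bp, below the share of all IDR regions at both. The share in the top regions of both replicates rose to 87.1% when the top regions were doubled in number. Motifs were at 11 regions within 100 bp of the summit, and at 6 and 6 with a replicate left out. With a replicate left out in turn, 7 to 8 genes, 32 to 36 regions and 32 to 34 other pathway genes were counted, and the promoter share was 22.2% to 31.3%. For single genes, 18 of 80 alternative counts moved by over 1.5 times. Leaving out replicate 1 took RapGAP1 from 8 regions to 4 and gave Ras85D 1, its top region of replicate 3. Leaving out replicate 3 took pnt and aop from 4 to 7 and Lk6 from 1 to 2. No paired analysis was possible because both samples belong to 1 group. Without read counts or a control, signal over background could not be measured here.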
